A study of Mus musculus with 2 samples.

Results

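Genes that carry fatty acids and cholesterol into, within and out of cells were followed in leukemic stem cells with and without STAP-1. They were chosen by name, as genes of lipid handling that largely respond to peroxisome proliferator-activated receptors (PPARs), and are 9 of the 23284 gene symbols of the RNA-seq data. By role they fall into 4 uptake genes (Lpl, Slc27a1, Fabp4 and Fabp5), 1 lipid droplet gene (Plin2), 2 efflux genes (Abca1 and Abcg1) and 2 oxidation genes (Cpt1a and Acadm). In the STAP-1 KO library, 3 members fell past a 2-fold cut-off: Abca1 (13.7-fold), Abcg1 (3.64-fold) and Slc27a1 (3.02-fold). No member rose past it. Over all comparable genes 22.9% fell and 12.3% rose past the same cut-off. The call of Abcg1 ended, and Fabp5 passed the cut-off downwards, when genes of like transcript length and GC content were taken as the base. Both changes depended on the transcript taken for each gene, and with the longest one neither held. Both oxidation genes lay within 1.34-fold of WT.

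The cells came from mice in which chronic myeloid leukemia (CML) had been induced. LSK cells (lineage-negative, Sca-1+, c-Kit+) of C57BL/6J donors, either WT or STAP-1 KO, were transduced with a retrovirus carrying human BCR-ABL and green fluorescent protein (GFP), and were transplanted into lethally irradiated C57BL/6SJL recipients. GFP+ CD45.2+ LSK cells, called CML leukemic stem cells (LSCs), were isolated from the recipients' bone marrow on day 11. Both genotypes therefore carry BCR-ABL, GFP and the history of irradiated hosts, mice were 8 to 14 weeks old, and whether cells of several mice were pooled is not given in the sources used here. The STAP-1 KO donors carried a targeted disruption of Stap1, which encodes an adapter protein. With 1 library per genotype, differences could not be checked against replicates or tested, and p-values are not given. The intervals below cover the counting of reads only.

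Lipoprotein lipase frees fatty acids from circulating triglycerides, transport proteins at the membrane and fatty acid-binding proteins in the cytosol carry them on, and surplus is stored in droplets coated by perilipins. Fatty acids are burned after the carnitine shuttle has brought them into mitochondria, where acyl-CoA dehydrogenases take the first step of each round of β-oxidation. Cholesterol leaves the cell through ATP-binding cassette transporters, which in hematopoietic stem and progenitor cells are known to restrain proliferation. PPARs, and the liver X receptors (LXRs) that induce the cholesterol transporters, bind DNA as partners of retinoid X receptors (RXRs) at repeats of the motif AGGTCA.

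Because this motif is shared by PPAR, LXR and RXR, the promoters of the members were read for it. RefSeq promoters (GRCm38.p6, 250 bases before to 50 after the transcription start) were at hand for 5 of 9 members: Abca1, Plin2, Slc27a1, Cpt1a and Acadm. On either strand, an exact copy of AGGTCA stands in the windows of Acadm, Plin2 and Cpt1a, and 16.3% of all 32851 promoters hold one. The windows of Abca1 and Slc27a1 have no copy without a mismatch. The sequences below show 1 match for each of the 5 genes, each as 30 bases 5′ to 3′ on the strand of the gene. Capitals mark the match, which lies on the opposite strand in all 5 and so reads as TGACCT where it is exact. For Plin2, the match is a pair of copies with a spacer of 1 base, as PPAR with RXR prefers, with 2 mismatches, found at up to 2 mismatches in 3.86% of promoters. For Abca1 and Slc27a1, it is a pair with a spacer of 4 bases, as LXR with RXR prefers, with 3 mismatches, found at up to 3 mismatches in 21.9% of promoters. For Cpt1a and Acadm it is the single exact copy. Slc27a1 has 3 annotated starts, of which the first is shown, the second also holds a spacer-4 pair with 3 mismatches and the last has none closer than 5. Acadm also holds a pair with a spacer of 1 and 3 mismatches, as do 24.6% of promoters at up to 3.
Plin2, chr4:86670263-86670292, minus strand: agctttcaGGACCCCTGACCTaagtcagac
Abca1, chr4:53159940-53159969, minus strand: cagcgttTGACCGGTAGTAACCCcggcgct
Slc27a1, chr8:71568711-71568740, plus strand: ccgcactTGCCCAGCCTTGGCCTtcgagtg
Cpt1a, chr19:3323195-3323224, plus strand: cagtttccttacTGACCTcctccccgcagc
Acadm, chr3:153944864-153944893, minus strand: gTGACCTtcgggctccggtgacactgggca
Counted from the transcription start, these matches begin at −225 (Plin2), −67 (Abca1), −153 (Slc27a1), −94 (Cpt1a) and −249 (Acadm). These are matches of letters and not measured binding.

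Levels are FPKM, the authors' count of fragments per kilobase of transcript, scaled for library size. Sequencing depth is not stated, but many low values, 48.1% in WT and 49.4% in STAP-1 KO, fell on steps worth 1 read each. This gave effective depths of 7490000 reads for WT and 10470000 for STAP-1 KO. The depths were fitted to these steps, and the share by chance, 2%, is for a depth fixed in advance. At these depths 3 reads on a 2000-base transcript come to 0.224 FPKM in WT and 0.16 in STAP-1 KO. Stap1 itself was at 62.0 FPKM in WT and at 0.309 in STAP-1 KO, which fits the labels. Of the markers of the sort, Kit was at 468 FPKM in WT and 30.1 in STAP-1 KO and Ly6a (Sca-1) at 285 and 106, while the lineage markers in the files reached at most 1.82 FPKM. Cd34, a stem and progenitor cell gene that the sort did not use, was at 281 and 194 FPKM. The libraries differed widely in other cell-type genes. Their counts are at the 2-fold cut-off, past which 22.9% of all comparable genes fell and 12.3% rose. Of 12 mast cell and basophil genes 11 fell, their summed level going from 52400 to 5350 FPKM, and 5 of 5 primary granule genes rose, from 564 to 4620 FPKM. Of 5 erythroid genes 1 fell (Alas2, from 100.3 to 32.8 FPKM) and 1 rose (Hba-a1, from 34.8 to 380), and their sum was 321 FPKM in WT and 590 in STAP-1 KO. In bulk RNA, fewer cells of a type and less RNA per cell cannot be told apart, and the part of these differences in the values of the members was not tested.

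A gene was called where the libraries differed by 2-fold or more and neither was under 0.1 FPKM. By this rule 35.2% of 12507 comparable genes were called, 22.9% lower in STAP-1 KO and 12.3% higher. Log2 ratios are of STAP-1 KO over WT with 0.1 FPKM added to each value. Over the 10974 genes whose mean reached 1 FPKM the median log2 ratio was −0.04, with quartiles at −0.88 and 0.59.

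The members differed widely in level, and those with the largest ratios were not those with the most RNA. In the WT library Fabp5 was the highest, followed by Plin2, Acadm, Abcg1, Cpt1a, Slc27a1, Abca1, Lpl and Fabp4. The intervals of Abcg1 and Cpt1a overlapped, as did those of Abca1 and Lpl, and all other neighbours in this order were apart. In the STAP-1 KO library the order was Fabp5, Plin2, Acadm, Cpt1a, Abcg1, Slc27a1, Lpl, Abca1 and Fabp4, with overlaps between Abcg1 and Slc27a1 and between Abca1 and Fabp4. Abcg1 and Cpt1a, side by side in WT, were thus separated in STAP-1 KO, and Abca1 moved from above Lpl to below it.

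**Figure D1:**
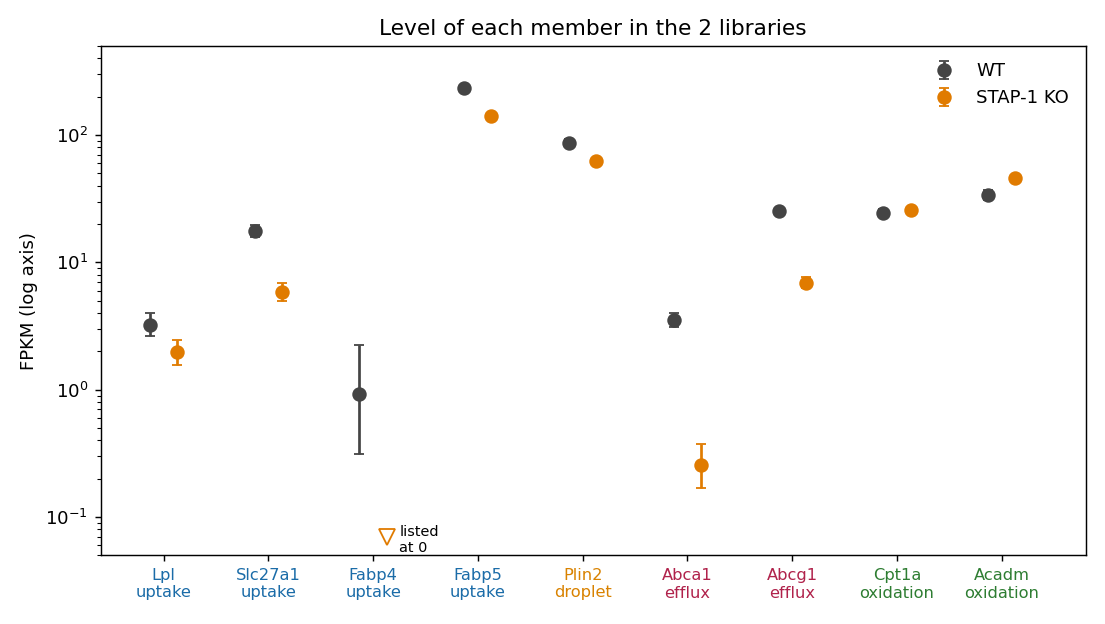
Level of each member in FPKM on a log axis, WT in grey and STAP-1 KO in orange, 1 library each, with bars for the 95% Poisson interval of the estimated reads. The points of Abca1, Abcg1 and Slc27a1 stand well apart, those of Cpt1a nearly coincide at 24.6 and 25.6 FPKM, and Fabp4 is listed at 0 in STAP-1 KO.

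The efflux genes were furthest from WT. Abca1, which loads cholesterol and phospholipid onto lipid-poor apolipoprotein A-I, spans 50 exons at chr4:53030787-53159895 on the minus strand of GRCm38. Its level was 3.52 FPKM in WT (95% interval 3.11 to 3.97) and 0.257 in STAP-1 KO (0.169 to 0.373), about 265 and 27 reads. It fell 13.7-fold, with a counting interval of 9.22 to 21.2, and its log2 ratio was −3.34. The STAP-1 KO value is low enough that the pseudocount matters: with 1 FPKM added the log2 ratio was −1.85, and a floor of 1 FPKM in both libraries takes Abca1 out of the comparison. At a cut-off of 4-fold it was the only member called.

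Abcg1 passes cholesterol on to mature high-density lipoprotein and has 15 exons in its annotation at chr17:31057675-31117988, plus strand. Its level was 25.2 FPKM in WT (23.7 to 26.8) and 6.93 in STAP-1 KO (6.27 to 7.64), from about 1060 and 408 reads. It fell 3.64-fold (3.24 to 4.09), a log2 ratio of −1.85. The ratio was −0.93, under the cut-off, with the length and GC correction described below. It stayed past the cut-off with the longest transcript in that correction (−1.13) or with length correction alone (−1.06). As deposited, the libraries' intervals are far apart for both transporters, and Abcg1 carried the larger number of reads.

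Uptake genes differed among themselves. Slc27a1, also known as FATP1, moves long-chain fatty acids across the membrane and activates them, and lies at chr8:71568882-71587302 on the plus strand with 14 exons. It was at 17.7 FPKM in WT (15.9 to 19.7) and 5.87 in STAP-1 KO (4.99 to 6.86), about 344 and 159 reads. It fell 3.02-fold (2.5 to 3.67), and its log2 ratio of −1.58 was the only one of the uptake group past the cut-off.

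Fabp5, the epidermal fatty acid-binding protein, which can hand ligands to nuclear receptors, was the most abundant member (chr3:10012548-10016607, plus strand, 4 exons). It was at 234 FPKM in WT (222 to 247) and 141 in STAP-1 KO (132 to 149), and about 1370 and 1150 reads make this one of the best counted ratios here. The WT level was 1.66-fold that of STAP-1 KO (1.54 to 1.80), below the cut-off. The log2 ratio went from −0.74 to −1.37, past it, with the length and GC correction. With the longest transcript in that correction it was −0.91, below the cut-off. Of the 75-base stretches of its transcript 12% also occur in the annotated genes Gm14328 and Gm6166, which have no row of their own in the files, so reads could be shared with them.

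Lpl, the lipase itself, is annotated at chr8:68880491-68907448 on the plus strand with 10 exons. Its level was 3.23 FPKM in WT (2.63 to 3.97) and 1.99 in STAP-1 KO (1.57 to 2.46). The WT level was 1.62-fold higher, with an interval of 1.21 to 2.23 that reaches past the cut-off, so about 94.5 and 81.4 reads do not settle on which side of 2-fold Lpl lies.

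Fabp4, the adipocyte and macrophage fatty acid-binding protein (chr3:10204088-10208576, minus strand, 4 exons), was near the limit of detection. It was at 0.924 FPKM in WT, about 4.76 reads by the annotated length (0.315 to 2.26), and was listed at 0 in STAP-1 KO, where 3 reads would be 0.416 FPKM. The upper limit in STAP-1 KO, 0.512 FPKM, lies within the WT interval, and no fold is given on so few reads. The other 8 members passed the floor of 0.1 FPKM in both libraries.

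Plin2, the perilipin that coats lipid droplets in most cells, was the second most abundant member (chr4:86648386-86670060, minus strand, 8 exons). It was at 86.8 FPKM in WT (81.8 to 92.2) and 62.2 in STAP-1 KO (58.6 to 66). The WT level was 1.4-fold that of STAP-1 KO (1.28 to 1.52), which is beyond counting error but below the cut-off.

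The oxidation genes lay on the other side of WT or level with it. Cpt1a, the carnitine palmitoyltransferase that controls entry of long-chain fatty acids into mitochondria, has 19 exons at chr19:3322334-3385733 on the plus strand. It was at 24.6 FPKM in WT (22.9 to 26.4) and 25.6 in STAP-1 KO (24.1 to 27.2), a ratio of 1.04 whose log2 interval of −0.08 to 0.19 includes 0. No difference in Cpt1a was detectable at this depth, and a 2-fold difference in either direction lies outside the counting interval.

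Acadm, the medium-chain acyl-CoA dehydrogenase, lies at chr3:153922357-153944632 on the minus strand with 12 exons. It was at 34.1 FPKM in WT (31.0 to 37.3) and 45.8 in STAP-1 KO (42.8 to 48.9). The STAP-1 KO level was 1.34-fold that of WT, and the log2 interval of 0.26 to 0.59 lies above 0 and below the cut-off.

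By role, the median log2 ratio was −2.59 for the 2 efflux genes, −0.74 for the 3 comparable uptake genes, −0.48 for Plin2 and 0.24 for the 2 oxidation genes. Counted against the background, 3 of 8 comparable members were lower in STAP-1 KO, where 22.9% of all comparable genes were, and 0 of 8 were higher, where 12.3% were. With so few members these counts describe the set and are no evidence that it stands apart from other genes. Slc27a1, Abca1 and Abcg1 lay below the lower quartile of all genes, and the other 5 comparable members lay between the quartiles.

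**Figure D2:**
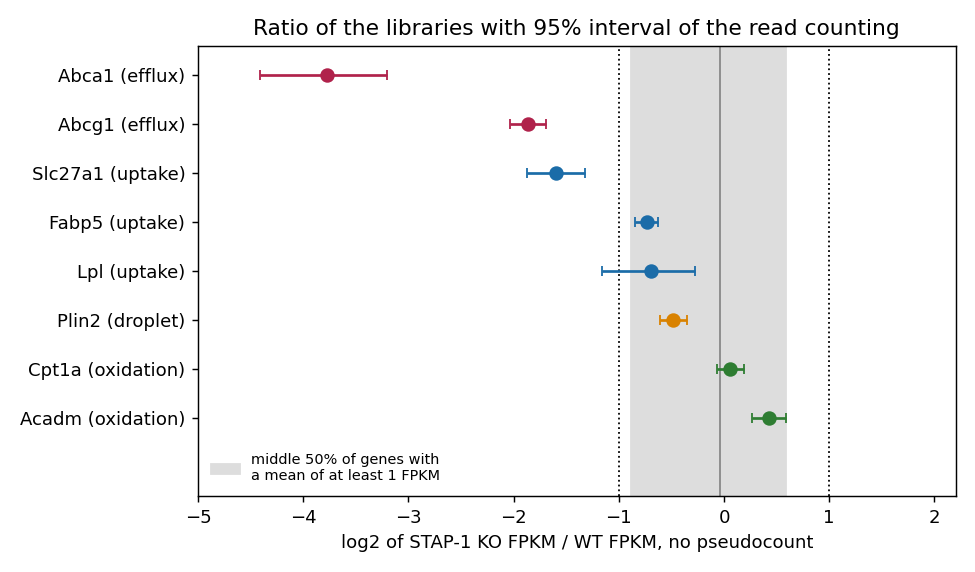
Log2 ratio of STAP-1 KO over WT for the 8 comparable members, without pseudocount, coloured by role, with the 95% binomial interval of the estimated reads. Dotted lines mark 2-fold, the grey line the median of genes whose mean reached 1 FPKM and the band their quartiles (−0.88 and 0.59). The intervals of Abca1, Abcg1 and Slc27a1 lie left of the 2-fold line, and those of Cpt1a and Acadm lie inside the band.

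Transcript length moved with the ratio across the whole transcriptome, and the efflux genes have long transcripts. Over 10864 genes Spearman's rho of log2 ratio and length was −0.39, a description across genes of the same 2 libraries. Among the 544 genes with transcripts of at least 7396 bases, the class of Abca1 (10262 bases), the median log2 ratio was −1.01 and 52.3% of comparable genes were lower. In the class of Abcg1 (5832 bases) the median was −0.71 and 39.4% were lower. Fabp5 (987 bases) belongs to a class of short transcripts with a median of 0.50, of which 11.6% were lower.

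**Figure D3:**
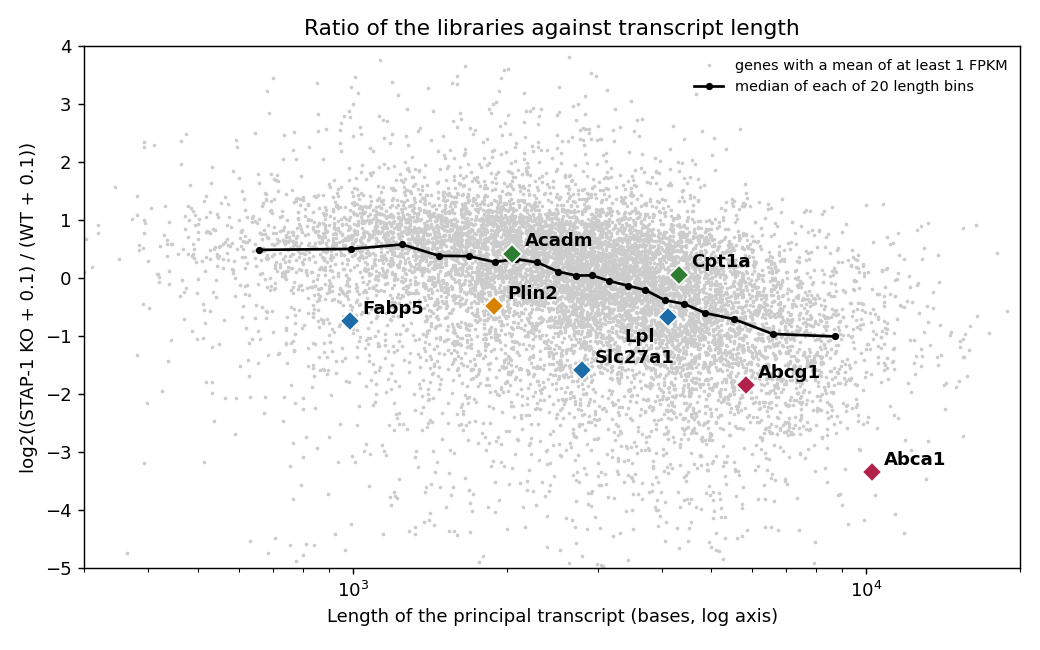
Log2 ratio of STAP-1 KO over WT against the length of the principal transcript (log axis) for genes whose mean reached 1 FPKM (grey), with the median of each of 20 length bins (black line) and the 8 comparable members (diamonds, coloured by role). Of 10864 genes, 119 fall outside the axes. The medians go from 0.49 in the shortest bin to −1.01 in the longest, Abca1 lies below the line at the right, and Cpt1a lies above it.

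Read against genes of like length and GC content, the order of the roles was the same, with the efflux genes nearer to the rest. The log2 ratio less the running median was −2.40 for Abca1, −1.30 for Slc27a1 and −1.37 for Fabp5, which thus passed the 2-fold cut-off. It was −0.93 for Abcg1, which ended its call. With the longest transcript in place of the principal one neither change held, with Fabp5 at −0.91 and Abcg1 at −1.13. With length correction alone Fabp5 (−1.23) and Abcg1 (−1.06) were both past the cut-off. Lpl was at −0.49 and Plin2 at −0.68. Cpt1a, at 0.49, was above genes of its length, and Acadm, at 0.05 (−0.04 with the longest transcript), was level with them. The part of transcript length in the values as deposited was not tested further.

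**Figure D4:**
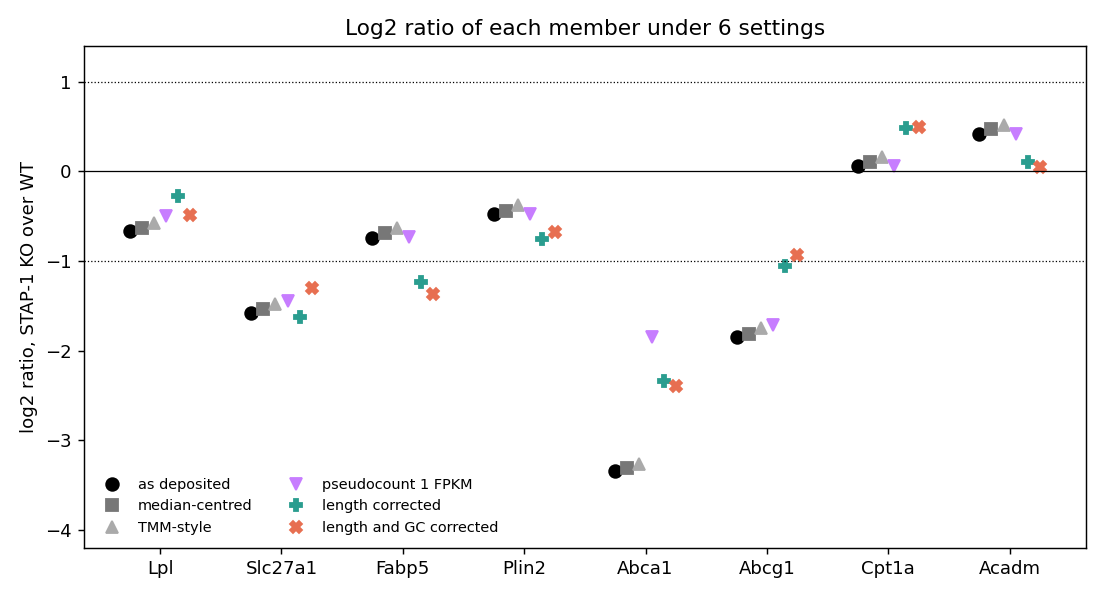
Log2 ratio of STAP-1 KO over WT for each of the 8 comparable members as deposited, under 2 other scalings of the libraries, with a pseudocount of 1 FPKM, and after correction for transcript length alone or with GC content. Dotted lines mark 2-fold. Abcg1 goes from −1.85 to −0.93 and Fabp5 from −0.74 to −1.37 with the length and GC correction, crossing the line in opposite directions. With the longest transcript, which is not drawn, neither crosses it (−1.13 for Abcg1 and −0.91 for Fabp5).

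Other genes of the same functions were read from lists that exclude the members. Most of the 12 other efflux genes lay on the same side of WT as Abca1 and Abcg1, though few passed the cut-off. Of the 12, 3 were lower, where 22.9% of all comparable genes were, 1 was higher, where 12.3% were, and of 11 whose mean reached 1 FPKM 10 had a log2 ratio below 0, with a median of −0.82, where 51.7% of all such genes lay below 0. Abca7, a transporter close in sequence to Abca1, fell from 16.0 to 2.39 FPKM, and Npc1, which exports cholesterol from late endosomes, fell from 8.27 to 1.80. Cyp27a1, a mitochondrial sterol hydroxylase, fell from 4.44 to 1.08 FPKM. These remained past 2-fold after the length and GC correction, at −1.40, −1.45 and −2.03. Nr1h3, which encodes LXRα, was listed higher at 0.167 and 0.659 FPKM, on about 12.1 reads in STAP-1 KO and with a log2 interval of −0.07 to 5.30 that includes 0. Nr1h2, which encodes LXRβ, was far more abundant at 38.8 FPKM in WT and 29.6 in STAP-1 KO, a log2 ratio of −0.39 (−0.57 to −0.22) and below the cut-off. Stard3, a cholesterol carrier of late endosomes, was the efflux gene with a mean over 1 FPKM and a ratio above 0, at 16.1 and 30.3 FPKM.

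The 16 other uptake genes were mixed. Of 15 comparable genes 2 were lower and 1 was higher, against 22.9% and 12.3% of all genes, and of 12 whose mean reached 1 FPKM 4 had a log2 ratio below 0, with a median of 0.28. Acsl4, an acyl-CoA synthetase that favours arachidonic acid, fell from 39.4 to 9.12 FPKM. The lipoprotein receptor Lrp1 fell from 1.04 to 0.273 FPKM. Its log2 ratio was −0.61 after correction for length alone and −0.30 after correction for length and GC content, both under the cut-off. Slc27a3, a relative of Slc27a1, was called higher at 0.130 and 0.279 FPKM on about 6 reads, with a log2 interval of −1.38 to 4.44. Another relative, Slc27a4, was better counted, at 2.49 FPKM in WT and 1.33 in STAP-1 KO, a WT level 1.87-fold higher (1.29 to 2.7) and below the cut-off. Dbi, the acyl-CoA-binding protein, was the most abundant gene of the list at 372 and 501 FPKM.

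Of 23 other genes of droplet formation and lipolysis 20 were comparable, 6 were lower and 1 was higher, with a median of −0.20. The shares over all comparable genes were 22.9% lower and 12.3% higher. Lpin1, a phosphatidate phosphatase on the way to triglyceride, fell from 25.2 to 5.40 FPKM. The acyltransferase Agpat3 fell from 21.6 to 7.13 FPKM, and Lipe, hormone-sensitive lipase, from 12.2 to 3.90. Plin3, a droplet coat protein like Plin2, fell from 71.3 to 28.6 FPKM, and Lpin2 and Soat1, picked out here after their values were seen, complete the 6. With the length and GC correction 3 of the list were past 2-fold downwards: Lpin1 (−1.46), Lipe (−1.14) and Plin3 (−1.11) stayed, while Agpat3 (−0.61), Lpin2 (−0.58) and Soat1 (−0.19) did not. Dgat2, which adds the last acyl chain of triglyceride, rose from 2.48 to 8.14 FPKM. The list thus holds both a synthesis gene that rose and synthesis and lipolysis genes that fell, while Pnpla2, the main triglyceride lipase, was at 38.5 and 40.2 FPKM. The perilipins Plin4 and Plin5 and Cidec were listed at 0 in both libraries.

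Among 30 other oxidation genes, 29 were comparable, 2 were lower and 1 was higher, where 22.9% and 12.3% of all comparable genes were, and the median of 0.01 was close to that of all genes. Cpt1c, a relative of Cpt1a known mainly from brain, fell from 4.90 to 0.776 FPKM, and Decr1, which handles unsaturated fatty acids, fell from 54.0 to 22.2. Eci1, an isomerase for unsaturated fatty acids, rose from 46.5 to 100.6 FPKM, a call that ended with the length and GC correction (0.73). The 16 mitochondrial β-oxidation genes had a median of 0.08 and ranged from −1.28 to 1.11. The 7 peroxisomal genes had a median of −0.16, ranged from −0.89 to 0.27, and none was called. Cpt1a and Acadm therefore lay within the range of the genes they work with.

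**Figure D5:**
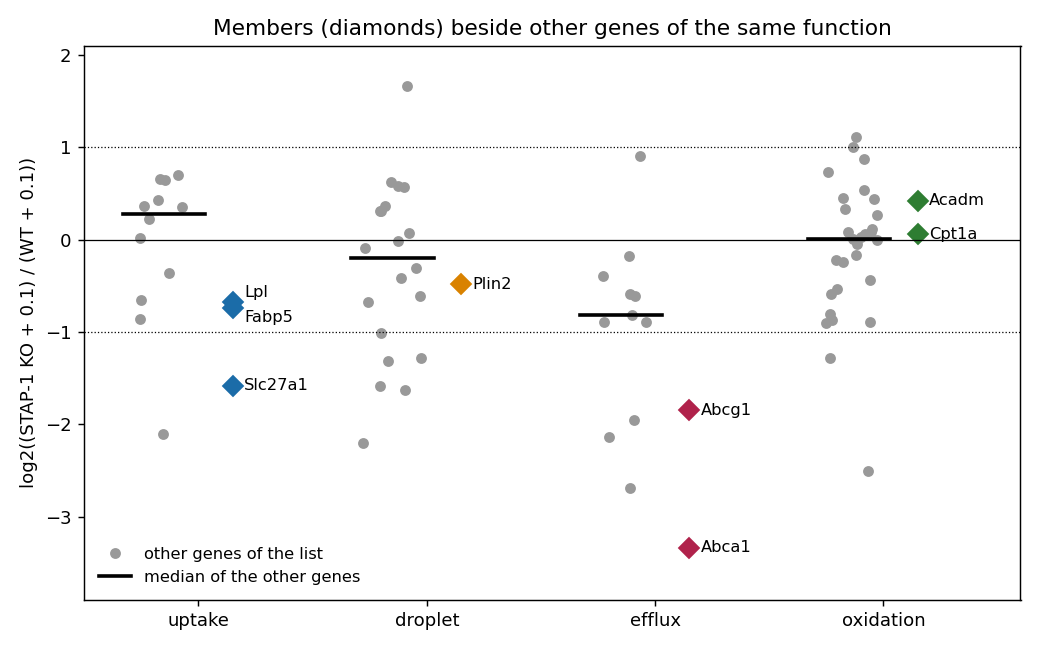
Log2 ratio of STAP-1 KO over WT for the members (coloured diamonds) and for other genes of each function whose mean reached 1 FPKM (grey points, with a black line at the median). The medians of the other genes are 0.28 for uptake, −0.20 for droplet, −0.82 for efflux and 0.01 for oxidation, and dotted lines mark 2-fold.

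The receptors and co-factors that act on these genes were read from a list of their own. Ppara was listed at 0 in both libraries, Ppard was at 0.443 FPKM in WT and 0.540 in STAP-1 KO, and Pparg was at 1.54 and 2.15. None of the PPAR genes was thus called. Rxra, an RXR that pairs with both PPARs and LXRs, fell from 3.14 to 0.604 FPKM, whereas Rxrb was at 27.1 and 34.9. The coactivator Ppargc1a fell from 2.24 to 0.168 FPKM, on about 11 reads in STAP-1 KO, and Ppargc1b was at 1.28 and 1.03. The corepressor Ncor1 was at 33.9 and 29.4 FPKM. With the length and GC correction Rxra (−1.31) and Ppargc1a (−2.46) stayed past 2-fold.

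Markers of other cells that use these genes were read from the same libraries. All 6 adipocyte genes were under 1 FPKM in both libraries, with Lep and Retn at 0, and their sum was 0.409 FPKM in WT and 0.774 in STAP-1 KO. Adipoq was the adipocyte gene called, higher at 0.130 and 0.466 FPKM on about 1.06 and 5.29 reads. Of the 6 endothelial genes 4 were comparable, 2 were higher (Plvap at 2.58 and 5.44 FPKM, Emcn at 0.110 and 0.787) and 0 lower. Emcn rested on about 0.945 and 9.47 reads, with a log2 interval of −0.16 to 8.14 that includes 0. The endothelial sum was 4.26 and 7.92 FPKM, and Gpihbp1, which anchors Lpl on capillaries, was at 0 in both. Over all comparable genes 22.9% were lower and 12.3% higher. Of 12 macrophage genes, 8 were comparable, 2 fell and 2 rose, and their sum was 135 FPKM in WT and 44.1 in STAP-1 KO. Adgre1 (listed as Emr1) fell from 30.7 to 4.34 FPKM and Cd68 from 95.7 to 26.3, while Csf1r rose from 1.56 to 5.31 and Cd14 from 1.14 to 4. C1qc was level at 1.26 and 1.24 FPKM, and Mrc1, Marco, Mertk, Vsig4 and Timd4 were at most 0.209 FPKM. The calls of the macrophage list thus went both ways, and the 2 genes that fell were its most abundant in WT. The lineage antibodies of the sort included CD11b and Gr-1. The part of any of these cell types in the values of the members was not tested.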

How the data were processed

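RNA-seq of 2 libraries, 1 of WT and 1 of STAP-1 KO CML LSCs, was used. RNA was extracted with a miRNeasy kit per the labels and an RNeasy kit per the methods. SMART-Seq v4 and Nextera XT libraries, which keep no strand, were read as 75-base single reads. The authors mapped these to mm10 (TopHat2 2.0.13, Bowtie2 2.2.3 and, in the submitters' processing notes, SAMtools 0.1.19) and deposited FPKM values from Cufflinks 2.2.1 (Cuffnorm). Annotation and library scaling are not given in the sources used here.

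The members and gene lists were chosen with earlier results of these data known. Calls needed a 2-fold ratio and no value under 0.1 FPKM, and log2 ratios a pseudocount of 0.1 FPKM, which understates the change of low genes (Python 3.11.15 with pandas 2.3.3, scipy 1.17.1 and numpy 2.4.6). Besides the members, a rule named up to 5 called genes per pathway list (those whose ratio with 1 FPKM added was furthest from 1), the receptors and co-factors, Stap1, Kit, Ly6a and Cd34. A gene named by this rule is not reported here. Dbi, Slc27a4, Nr1h2, Pnpla2, Stard3, Lpin2, Soat1 and single markers of other cells were named after their values were seen. List medians cover genes whose mean reached 1 FPKM.

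Of the symbols, 20911 matched GENCODE M21 (GRCm38) as written, 1900 by an older symbol and 473 not at all. Depth was fitted to the steps of low values in single-transcript genes, less 208 bases of length. Whole reads (tolerance 0.01) were met by 48.1% of 314 values in WT and 49.4% of 391 in STAP-1 KO. The share by chance, 2%, is for a depth fixed in advance, whereas the fit chose the depth. Approximate reads from the principal transcript gave exact 95% Poisson and conditional binomial intervals, which cover counting error only. Corrections subtracted running medians over 20 bins of length, then of GC content. Depth, calls and intervals were tested on simulated data. Alternatives changed the pseudocount, floor, cut-off, scaling, genes in list medians and length correction, and the longest transcript and a minimum of 10 estimated reads were added after seeing the data. RT-PCR, flow cytometry and cell line data were not analysed here.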

Additional observations from a re-analysis of the deposited data

How the results depend on the processing

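Of 268 alternative values, 199 stayed within counting error or within 1.5 times the main count, 69 moved and none reversed a called direction; the cause was not tested. Length and GC correction gave role medians of −1.30 (uptake), −0.68 (droplet) and −1.67 (efflux), a median of −0.52 for the other efflux genes, and counts of 1 uptake and 3 droplet genes lower and of 2 droplet and 0 oxidation genes higher. Length alone gave −1.23, −0.75 and −1.70. With the longest transcript, added after seeing the data, droplet was at −0.83, efflux at −1.79 and the other uptake genes at 0.46, with 1 uptake, 3 droplet and 4 oxidation genes lower and 2 uptake genes higher. A pseudocount of 1 FPKM gave −1.78 for efflux. At 4-fold 1071 genes were lower and 300 higher in all. Lower at 4-fold were 1 member, 1 gene each of the uptake, droplet and oxidation lists and 3 of the efflux list. In any list 0 were higher. At 1.5-fold 3201 genes were higher and 4101 (32.8%) lower, 5 members were lower (Lpl and Fabp5 added), 4 uptake, 8 efflux and 7 oxidation genes were lower, and 4 uptake, 2 droplet, 2 efflux and 4 oxidation genes were higher. With 1 FPKM in both libraries 1 uptake and 1 oxidation gene were lower and 0 uptake and 0 efflux genes higher; 1 FPKM in at least one library also left 0 and 0 higher. At least 10 estimated reads, added after seeing the data, left 0 uptake genes higher. TMM-style scaling gave 2 efflux genes higher, and median, upper quartile and TMM-style scaling each 2 oxidation genes higher. Depth limits Fabp4, Nr1h3 and Slc27a3, each on under 13 reads. No paired analysis was possible because the result comes from no test and each genotype has 1 library.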
